A study of Zea mays with 9 samples.

Results

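The roots of maize seedlings that received a protein hydrolysate (Bio) were compared with the roots of seedlings that received inorganic nitrogen (N), over all 39372 transcripts of the array. The comparison took 6 of the 9 arrays of the series, the 3 whose labels name the hydrolysate and the 3 whose labels name inorganic N. The other 3 arrays carry RNA from roots given free amino acids (Aa). Their levels are shown beside those of Bio and N, and they were part of the fit, where they add to the estimate of the spread. With only the 6 arrays in the fit, 2870 transcripts had an unadjusted p below 0.05 by limma, against 3741 with all 9. Roots in Bio had higher levels of single transcripts for the transport of amino acids, metal chelates, nitrate and sugars. They had lower levels of transcripts for defence proteins, for single auxin efflux carriers and for a regulator of crown roots. The size of these differences varied between the 3 repeats of the experiment, and none of them passed the test over all transcripts.

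All seedlings were of the P0423 hybrid and are labelled as 4 days old, and no mutant or transgene is named in the labels. They grew for 3 days in diluted nutrient solution, which held a small amount of ammonium phosphate in every treatment, and total N was 11.3 mg per litre in all of them. In Bio the N came from 0.1 ml per litre of a hydrolysate made chemically from animal connective tissue, in N it came from ammonium phosphate, and in Aa it came from a mixture with the amino acid composition of the hydrolysate. Since the inorganic N was a phosphate salt, the phosphate supply and the source of N cannot be told apart. Each array held RNA from the whole roots of 24 seedlings, and the experiment was run in 3 repeats. In such whole roots a smaller share of a cell type and less RNA per cell cannot be told apart.

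Plants take up N mostly as nitrate and ammonium and join it to glutamate through glutamine synthetase, but roots also take up amino acids and short peptides with carriers of their own. The source of N affects how the root system branches, a process in which the hormone auxin and its efflux carriers (the PIN proteins) have a central part. Grasses acquire iron by releasing phytosiderophores, which they make from nicotianamine, and by taking the iron chelate back up with transporters of the Yellow stripe family.

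The values are log2 intensities from which the log2 of the 75th percentile of the same array was subtracted, so that a level of 0 is the 75th percentile of an array and a difference of 1 is a 2-fold difference. The number of transcripts well above background was 27019 on Bio 1, the lowest, and up to 32309 on the other arrays. Transcripts that were well above background on none of the 6 arrays had a median level of -6.87 on Bio 1, against -8.38 to -7.78 on the other 8 arrays, so that the low end of Bio 1 stood apart. Correlations between arrays were taken only across the 26559 transcripts well above background on all 6 arrays, which leaves out this low end. The N arrays correlated with each other at 0.974 to 0.975 and the Bio arrays at 0.950 to 0.960. Arrays of different groups correlated at 0.957 to 0.972 on the same slide and at 0.935 to 0.971 on different slides. Bio 2 correlated more closely with N 1 to 3 (0.971, 0.969 and 0.963) than with Bio 1 and Bio 3 (0.952 and 0.950). Each repeat was hybridised on 1 slide with N at position 1, Aa at position 2 and Bio at position 3, and an effect of position cannot be told apart from one of treatment. The protocol describes the replicates as independent. The slide was a block in the limma fit, which takes out differences shared by all arrays of a repeat. The p-values of that fit therefore rest on how the differences between treatments varied over these 3 repeats, with Aa included.

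The root markers of the list used here (Casparian strip, root cap, root hair and crown root genes, 8 transcripts) were well above background on every one of the 6 arrays except 1 transcript on Bio 1, and their summed level was 27.4, 22.2 and 45.2 times the 75th percentile on Bio 1 to 3, and 20.9, 20.4 and 24.2 times on N 1 to 3. Of 42 kernel storage transcripts the summed level was 1.46 to 2.13 in Bio and 1.50 to 1.96 in N. The green shoot markers (16 transcripts for subunits of the photosystems, chlorophyll-binding proteins and rubisco with its activase) summed to 19.7, 6.46 and 2.96 on Bio 1 to 3, and to 1.096, 1.95 and 4.04 on N 1 to 3. Green shoot transcripts were thus high on Bio 1 and Bio 2 and not on Bio 3, and their part in the other differences was not tested.

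With limma and the slide as a block, 0 of 38357 tested transcripts (0%) differed between Bio and N at an adjusted p no higher than 0.01 with a 2-fold difference, and the smallest adjusted p was 0.129. The remaining 1015 transcripts had too many spots marked as outliers by the scanner software to be tested. At an unadjusted p below 0.05 stood 3741 transcripts, of which 1847 (4.82%) were higher and 1894 (4.94%) lower in Bio. The methods' t-test took 103 transcripts at an unadjusted p of at most 0.01 with a fold change of 2, and 0 after adjustment. It was not an exact repeat of the study's procedure, which took p from permutation and an adjusted Bonferroni correction. Here p came from the t distribution with Benjamini-Hochberg adjustment, and marked spots were left out. Without Bio 1 the limma fit also called 0, with 2613 transcripts at an unadjusted p below 0.05. In a simulation of this comparison, the same fit called 75 of 100 transcripts changed by 4 on the log2 scale and 26 of 100 changed by 2, so that changes of a few fold could be missed with 3 arrays a group.

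The arrays themselves show how wide the differences were. The log2 fold changes ran from -4.30 to 6.70, with quartiles of -0.22 and 0.29 and a median of 0.03, and 1246 transcripts were at least 2-fold higher and 1145 at least 2-fold lower in Bio. The 3 Bio levels lay wholly apart from the 3 N levels, with a mean difference of at least 2-fold, for 909 transcripts, of which 443 (1.13%) were higher and 466 (1.18%) lower in Bio. On each of the 3 slides separately, 145 transcripts were at least 2-fold higher and 233 at least 2-fold lower in Bio. On slide 1 the difference between the arrays was widest (SD 0.925 over transcripts, against 0.744 and 0.706 on slides 2 and 3), and 5972 transcripts were at least 2-fold higher in Bio there, against 2200 and 2000. The differences of pairs of slides correlated at 0.117 to 0.166 across all transcripts, and at 0.256 to 0.289 across the 26559 that were well above background on all 6 arrays, where transcripts are not independent replicates.

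The direction depended on brightness. Among transcripts well above background on all 6 arrays, 1264 were higher and 1161 lower in Bio at an unadjusted p below 0.05. Among those well above background on only some arrays, 281 were higher and 702 lower. Among those well above background on none, 302 were higher and 31 lower, and their log2 fold changes had a median of 0.50, which moves with the raised low end of Bio 1. On all 3 N arrays and no Bio array 101 of the 39372 transcripts were well above background, whereas 2 were so on all 3 Bio arrays and no N array. The detection limits differed between arrays. The lowest level well above background was -5.09, -6.03 and -6.10 on Bio 1 to 3, and -6.70, -5.89 and -6.64 on N 1 to 3. The part of these limits in the counts was not tested.

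**Figure D1:**
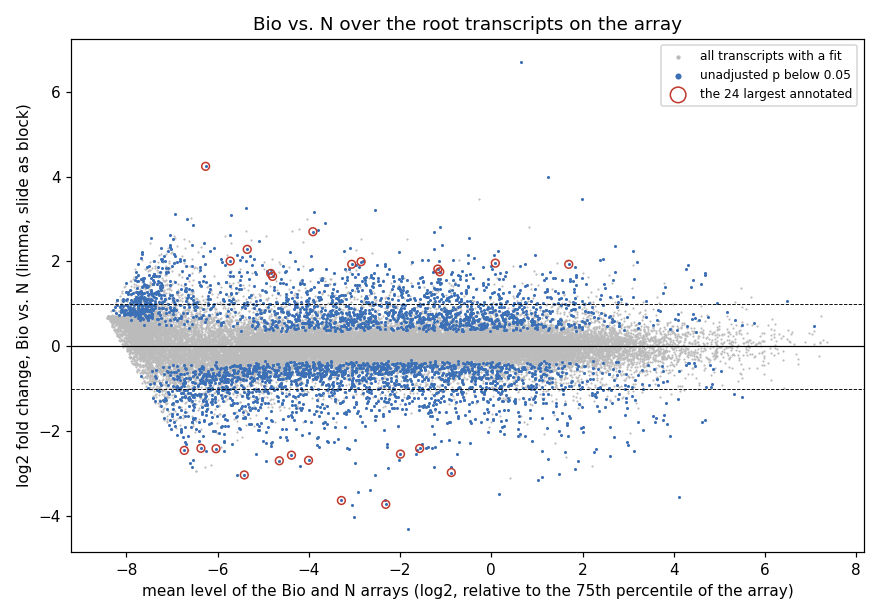
Log2 fold change of Bio vs. N against the mean log2 level of the 6 arrays for every tested transcript (grey), with those at an unadjusted p below 0.05 in blue, the 24 largest annotated differences circled and dashed lines at a 2-fold difference. The cloud is centred near a median of 0.03 and bends upward at the lowest levels, and both directions hold similar numbers of blue points (1847 higher, 1894 lower).

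The largest differences were sought among transcripts with an unadjusted p of at most 0.01, the same sign on all 3 slides, no marked spot, and levels well above background on all 3 arrays of the higher group. This left 626 transcripts, 266 higher and 360 lower in Bio, of which 176 (66 and 110) had a name or a description. The condition on background was harder to meet for transcripts higher in Bio, since Bio 1 had the fewest transcripts well above background. Its part in this split was not tested. With a 2-fold difference in place of the conditions on sign, spots and background, 264 transcripts were higher and 288 lower in Bio. The 24 most extreme annotated ones, 12 in each direction, had log2 fold changes of 1.65 to 4.24 and of -3.73 to -2.40 with adjusted p-values of 0.366 to 0.452 by limma, and the Bio and N levels did not overlap for 21 of them. They were selected for their difference, so the count without overlap describes them and supports nothing further.

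A carboxypeptidase (GRMZM2G373607_T01), an enzyme class that releases amino acids from the end of peptides, had the largest fitted difference among those higher in Bio, measured against N levels at background. Its levels were -3.24, -3.36 and -5.82 on Bio 1 to 3 and -8.89, -8.04 and -8.22 on N 1 to 3, so that every Bio array was above every N array. On no N array was it well above background, which bounds the difference at least 4.83-fold higher in Bio (fitted log2 fold change 4.24 ± 0.77 (SE), adjusted p = 0.411, limma). On the Aa arrays it stood at -2.76, -5.05 and -5.87, which overlapped Bio and not N.

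An amino acid carrier (GRMZM2G180547_T01) stood at 0.91, -1.73 and 0.03 on Bio 1 to 3 and at -1.97, -3.10 and -1.17 on N 1 to 3 (1.82 ± 0.49, adjusted p = 0.452). It was higher in Bio on each slide, although Bio 2 lay below N 3. A MYB-like transcription factor of the DIVARICATA type (GRMZM2G097788_T01) stood at 3.76, 1.93 and 2.29 in Bio and at 1.03, -0.08 and 1.24 in N (1.93 ± 0.37, adjusted p = 0.411), without overlap. A signal peptidase I (GRMZM5G827810_T01), which cuts the targeting sequence from exported proteins, stood at -3.98, -5.66 and -4.51 in Bio and at -6.38, -8.03 and -5.77 in N (2.01 ± 0.38, adjusted p = 0.411). The Bio arrays were all above the N arrays, the closest being Bio 2 and N 3.

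A dehydration-responsive element-binding protein (GRMZM2G424348_T01), a transcription factor class of drought and cold responses, stood at -0.87, -3.34 and -1.36 in Bio and at -4.26, -4.19 and -3.11 in N (1.995 ± 0.53, adjusted p = 0.451). Bio 2 lay below N 3 for this transcript, and without Bio 1 the log2 fold change was 1.26. A transcript described as Dwarf plant3 (GRMZM2G089803_T01), a cytochrome P450 of gibberellin synthesis, stood at -2.39, -3.54 and -1.75 in Bio and at -4.89, -7.11 and -3.78 in N without overlap (2.70 ± 0.66, adjusted p = 0.450). The name is only its description, and the transcript is not CYP88A1 (GRMZM2G093195_T01), which is given below with the gibberellin transcripts. Of the other transcripts of this set, 1 encodes a protein kinase (GRMZM2G418289_T01, 1.93) and 1 a protein that the study lists under transport processes (GRMZM2G107239_T01, 2.29).

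Among transcripts lower in Bio, a putative cysteine proteinase (GRMZM2G077479_T01) had the largest difference, with -5.63, -5.29 and -1.61 on Bio 1 to 3 and -0.71, -0.73 and 0.09 on N 1 to 3 (-3.73 ± 0.79, adjusted p = 0.439). Bio 3 was much closer to the N arrays than Bio 1 and Bio 2 were, and the groups did not overlap. A zinc finger protein (GRMZM2G320287_T01) stood at -6.76, -3.63 and -4.92 in Bio and at -2.48, -1.15 and -0.77 in N (-3.64 ± 0.63, adjusted p = 0.404), and it was low on all 3 Bio arrays. Endochitinase A (GRMZM2G052175_T01), an enzyme class that cuts the chitin of fungal walls, stood at -4.11, -0.57 and -2.42 in Bio and at -0.01, 1.63 and 0.22 in N (-2.98 ± 0.62, adjusted p = 0.437). The closest pair was Bio 2 and N 1, and slide 2 had the smallest distance.

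A receptor kinase of the PERK1 type (GRMZM2G338376_T01), a membrane kinase with a proline-rich domain thought to sense the wall, stood at -6.05, -4.89 and -6.04 in Bio and at -2.95, -2.82 and -3.52 in N (-2.57 ± 0.35, adjusted p = 0.366). A ribonuclease P transcript (GRMZM2G010149_T01), named for the enzyme that trims transfer RNA, stood at -6.09, -4.41 and -5.55 in Bio and at -2.66, -1.97 and -3.35 in N (-2.69 ± 0.28, adjusted p = 0.366). An EF-hand protein (GRMZM2G308597_T01), a calcium-binding type, stood at -5.02, -2.54 and -2.22 in Bio and at -1.91, -0.11 and -0.13 in N (-2.54 ± 0.50, adjusted p = 0.418). In all 3 cases the groups did not overlap, and the Bio arrays were spread more widely than the N arrays.

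Of the 12, 4 were well above background on no Bio array and can only be bounded. An LOB transcription factor (AC234149.1_FGT002) was at least 3.44-fold lower in Bio, a glycosyltransferase (GRMZM2G067361_T01) at least 1.88-fold, BAP2 (GRMZM2G104622_T01) at least 1.49-fold and an unassigned protein (GRMZM2G451300_T01) at least 1.18-fold. For the LOB transcript the highest Bio level (-5.92) was above the lowest N level (-5.96), and for the other transcripts the groups did not overlap. Win1 (GRMZM2G419675_T01, -2.41) and a protein that the study lists under response to auxin (AC233864.1_FGT009, -2.70) made up the rest.

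**Figure D2:**
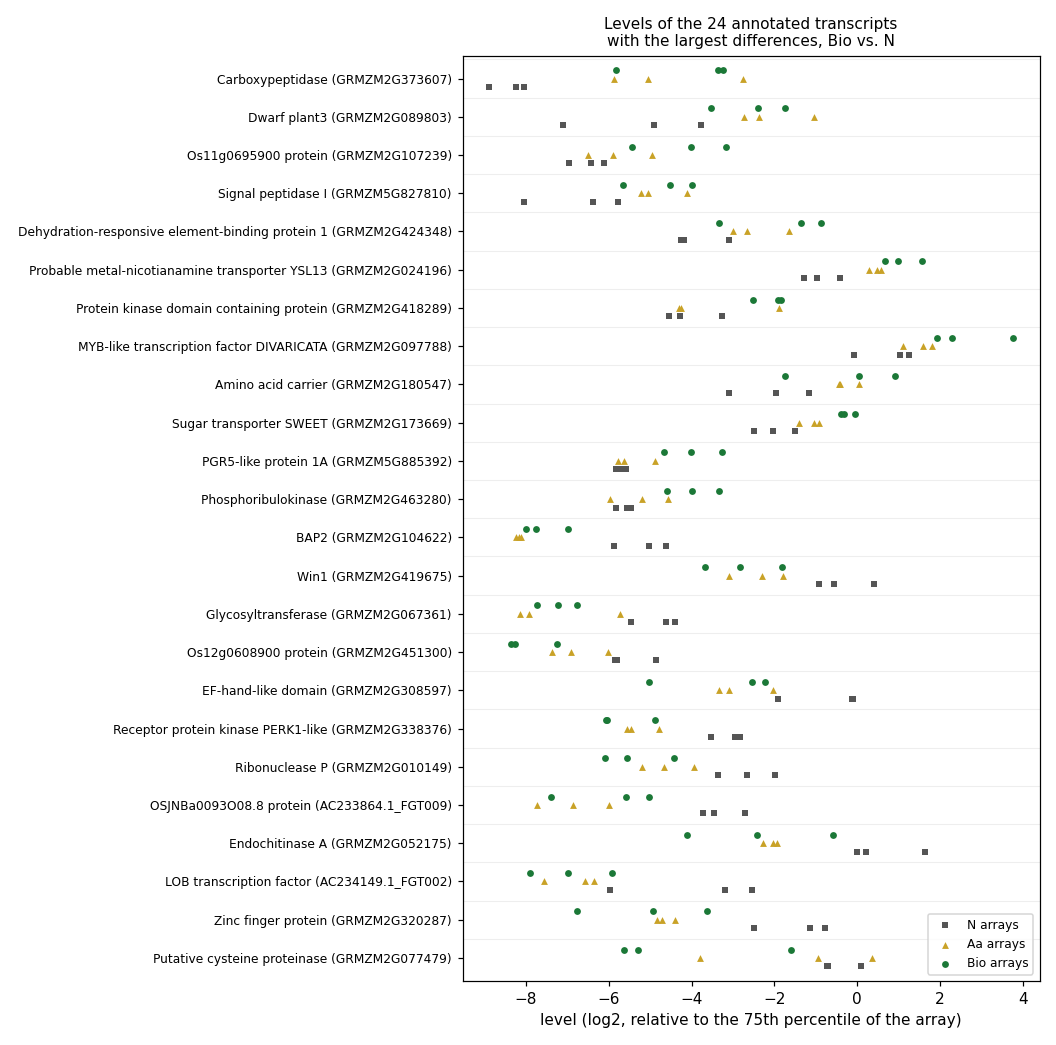
Log2 level on every N, Aa and Bio array of the 12 annotated transcripts with the largest positive and the 12 with the largest negative log2 fold change of Bio vs. N. Green Bio points lie apart from grey N points in 21 of the 24 rows.

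Counting the transcripts without annotation, GRMZM2G121878_T01 (3.22 ± 0.82) and GRMZM2G007969_T01 (2.32 ± 0.34) were among those highest in Bio, and GRMZM2G148964_T01 (-3.74 ± 0.94) and GRMZM2G059700_T01 (-3.61 ± 0.61) among those lowest. For GRMZM2G059700_T01 the levels of -5.76, -5.45 and -1.18 in Bio overlapped -2.57, -0.34 and 1.36 in N.

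Gene lists were drawn up from the symbols of the gene table, which names 2564 of the transcripts. Most lists are described by their counts beside the same counts over all transcripts, and no list was tested as a set. In all 53 lists 0 members were called by limma. The counts that follow are at an unadjusted p below 0.05, where 4.82% of all transcripts were higher and 4.94% lower in Bio. Lists not taken up with counts below are shown by their medians in the plot of all lists. The largest of these were the MYB factors, the kernel storage transcripts and the bZIP factors. Of 62 MYB factors 2 were higher and 1 lower in Bio, and of 42 kernel storage transcripts 5 and 1. Of 30 bZIP factors, 29 were tested, of which 1 was higher and 4 lower.

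Of 10 transcripts of nitrate uptake and reduction, 1 was higher and 0 lower in Bio, and the median log2 fold change was -0.11, against 0.03 over all transcripts. The high-affinity nitrate transporter nrt2.2 (GRMZM2G010251_T01) stood at -0.82, -0.12 and 2.94 on Bio 1 to 3 and at -2.16, -1.45 and -0.61 on N 1 to 3 (2.07 ± 0.61, adjusted p = 0.463). Bio 3 was by far the highest of the 6, and Bio 1 lay below N 3. Its relative nrt2 (GRMZM2G010280_T01) stood at -4.07, -0.28 and -1.87 in Bio and at -4.15, -2.71 and -2.99 in N (1.21 ± 0.66). For nrt2 the 2 arrays of slide 1 were nearly equal, and the log2 fold change was 2.02 without Bio 1. NAR2.1 (GRMZM2G179294_T01), the partner protein these transporters need, stood at -0.50, 1.22 and 0.79 against 0.57, 1.17 and 0.29. Its fit left out 3 marked spots and gave -1.07, which is the difference on slide 1 alone. On slides 2 and 3 Bio minus N was 0.05 and 0.49 for NAR2.1, so that its direction varied between slides. The probes of nrt2 and nrt2.2 belong to similar gene copies and may not tell them apart.

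Of 13 transcripts of glutamine, asparagine and glutamate metabolism, 0 were higher and 0 lower, and the median was -0.05. The glutamine synthetase transcript gln3 (GRMZM2G046601_T01) was the lowest of them, at -3.44, -0.23 and -0.91 in Bio against -0.62, -0.08 and -0.80 in N (-1.02 ± 0.56), and without Bio 1 the log2 fold change was -0.49.

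A peptide transporter of the PTR2 type (GRMZM2G347457_T01), which belongs to the carriers of short peptides, was lower in Bio. It stood at -4.74, -3.41 and -3.05 on Bio 1 to 3 and at -2.84, -1.73 and -1.26 on N 1 to 3, so that each slide had nearly the same distance and the groups did not overlap (-1.79 ± 0.23, adjusted p = 0.366). The Aa arrays were at -3.68, -3.11 and -2.98, and Bio vs. Aa was -0.48 with an adjusted p of 0.659. The study remeasured this transcript and 4 others by quantitative PCR, and the primer pairs of 3 of them, which define the stretch measured for the nitrogen and iron transcripts described here, are these.
Peptide transporter, forward: caatcggcgttgccattact
Peptide transporter, reverse: tgagcccgctgttgatttact
Nicotianamine aminotransferase naat1, forward: tcaaatctttctgccaaaggc
Nicotianamine aminotransferase naat1, reverse: ctgcgtattcaaggaaaact
Nicotianamine synthase nas2, forward: cgctgtttcaatctctcgtgt
Nicotianamine synthase nas2, reverse: ggtgcattgtgcacactgttc

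Of 14 transcripts of nicotianamine, phytosiderophore and iron handling, 3 were higher and 0 lower in Bio, with a median of 0.61 (0.43 without Bio 1). The nicotianamine aminotransferase naat1 (GRMZM2G096958_T01), which makes the precursor of phytosiderophores, stood at -4.30, -4.70 and -2.59 in Bio and at -6.35, -7.94 and -4.73 in N (2.48 ± 0.71, adjusted p = 0.458). The Bio arrays were above the N arrays without overlap, and Aa was higher still at -2.59, -1.57 and -2.38 (Bio vs. Aa -1.68, adjusted p = 0.656). The synthases nas1 (GRMZM2G385200_T01, 1.73 ± 0.59) and nas2 (GRMZM2G030036_T01, 1.53 ± 0.79) were higher in Bio on each slide, but the groups overlapped.

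Single metal transporters were also higher, while ZIP4 (GRMZM2G111300_T01) of the same list, named after its values were seen, was lower in Bio on every slide (-0.33 ± 0.17). A probable metal-nicotianamine transporter (GRMZM2G024196_T01), which carries metals bound to nicotianamine, stood at 0.66, 1.55 and 0.99 on Bio 1 to 3 and at -0.43, -1.28 and -0.98 on N 1 to 3 (1.96 ± 0.32, adjusted p = 0.404). All Bio arrays were above all N arrays, and Aa lay between at 0.46, 0.58 and 0.29. The metal transporter Nramp1 (GRMZM2G147560_T01) stood at -0.63, 0.72 and -0.56 in Bio and at -0.51, -1.37 and -2.06 in N (1.15 ± 0.40, adjusted p = 0.489), with no difference of that direction on slide 1.

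Of 12 transcripts of phosphate transporters, 11 could be tested, of which 0 were higher and 2 lower in Bio, with a median of -0.61 that was 0.025 after background correction on the negative controls. The phosphate exporter pho1 (GRMZM2G074158_T01), which loads phosphate into the xylem, stood at -1.04, -1.54 and -0.85 in Bio and at -0.57, -0.46 and -0.36 in N (-0.68 ± 0.19, adjusted p = 0.454), without overlap. The transporter pht11 (GRMZM2G139639_T01) was not well above background on any Bio array and was at least 1.39-fold lower there. For pht6 (GRMZM5G881088_T01) the levels of -3.77, -1.07 and -4.13 in Bio overlapped -0.46, -1.75 and -1.05 in N, and the log2 fold change of -1.90 was -0.94 without Bio 1.

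Of 24 transcripts of sucrose and hexose metabolism and transport, 3 were higher and 1 lower in Bio, and the median was -0.02. The alkaline alpha-galactosidases AGA3a and AGA3b, which release galactose from the raffinose sugars, were both higher. AGA3a (GRMZM2G050273_T01) stood at 2.25, 2.68 and 2.79 in Bio and at 0.97, 1.15 and 1.29 in N (1.44 ± 0.16, adjusted p = 0.366). AGA3b (GRMZM2G037265_T01) stood at -2.95, -1.41 and -1.56 against -3.86, -3.50 and -3.27 (1.57 ± 0.27, adjusted p = 0.404). The groups did not overlap for either, and each slide had a similar distance for AGA3a.

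A sugar transporter of the SWEET family (GRMZM2G173669_T01), whose members let sugars leave cells along their gradient, stood at -0.32, -0.39 and -0.05 on Bio 1 to 3 and at -2.03, -2.49 and -1.51 on N 1 to 3 (1.76 ± 0.20, adjusted p = 0.366). The groups did not overlap, and Aa lay between Bio and N on every slide, at -0.92, -1.41 and -1.04 (Bio vs. Aa 0.87, adjusted p = 0.656). The sucrose-phosphate phosphatase spp1 (GRMZM2G055489_T01), the last step of sucrose synthesis, stood at -1.19, -1.28 and -0.98 in Bio and at -0.52, -0.53 and -0.47 in N (-0.65 ± 0.17, adjusted p = 0.451), with no overlap.

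Of 58 transcripts of auxin response and transport, 3 were higher and 6 lower in Bio, with a median of 0.01. In this list 29 had higher and 29 lower fitted values. AUX36 (GRMZM2G359924_T01), of the Aux/IAA repressors that auxin removes, stood at 1.06, 0.10 and -0.13 in Bio and at -0.49, -1.58 and -0.94 in N (1.34 ± 0.22, adjusted p = 0.404). Bio was above N without overlap, and the Aa levels of -0.67, -1.39 and -1.59 overlapped those of N (Bio vs. Aa 1.56, adjusted p = 0.656). The auxin efflux carrier PIN8 (GRMZM5G839411_T01) stood at -5.75, -3.78 and -4.63 in Bio and at -2.10, -2.37 and -2.97 in N (-2.24 ± 0.48, adjusted p = 0.440). PIN9 (GRMZM5G859099_T01), another member, stood at -0.98, -0.80 and 0.64 against 0.36, 1.28 and 1.70 (-1.50 ± 0.35, adjusted p = 0.440). PIN8 had no overlap, whereas Bio 3 lay above N 1 for PIN9.

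Of 34 transcripts of cytokinin signalling and turnover, 33 were tested, of which 2 were higher and 5 lower. The cytokinin receptor kinases differed among themselves. HK1 (GRMZM2G151223_T01) stood at -2.69, -2.70 and -2.48 in Bio and at -2.12, -2.10 and -2.004 in N (-0.54 ± 0.14), a small difference with very little spread. HK1a2 (GRMZM2G125943_T01) was also lower in Bio (-0.50 ± 0.16) and HK1b2 (GRMZM5G833140_T01) higher (0.67 ± 0.22), both without overlap, and the adjusted p of all 3 lay at 0.451 to 0.480.

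Of 24 transcripts of jasmonate synthesis, 21 were tested, of which 3 were higher and 1 lower. The lipoxygenase lox10 (GRMZM2G015419_T01), from the enzyme class that opens the pathway to jasmonate and to green leaf volatiles, stood at -1.42, -2.04 and -1.01 in Bio and at -2.28, -3.14 and -2.34 in N (1.099 ± 0.23, adjusted p = 0.439), without overlap. The bright lipoxygenase lox4 (GRMZM2G109056_T01) stood at 5.50, 5.33 and 5.19 against 5.23, 4.16 and 4.31 (1.02 ± 0.21, fitted without 2 marked spots on slide 1). Among 21 transcripts of TIFY and JAZ repressors, which hold back the jasmonate response, 2 were higher and 1 lower, the last being TIFY2 (GRMZM5G838098_T01, -0.98 ± 0.33), which was at -0.55 with an unadjusted p above 0.05 without Bio 1. Of 6 transcripts of ethylene synthesis and perception 5 had lower and of 6 of strigolactone synthesis and signalling all had higher fitted values in Bio, with medians of -0.47 (-0.13 without Bio 1) and 0.31, but 0 in either list had an unadjusted p below 0.05. Of 6 transcripts of gibberellin synthesis and signalling (median 0.38, and -0.11 after background correction on all spots) 0 did, and CYP88A1 (GRMZM2G093195_T01), an oxidase of gibberellin synthesis, stood at 1.41, -0.31 and -0.10 against -0.49, -1.10 and 0.10 (0.83 ± 0.38, or 0.38 without Bio 1).

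In the LOB-domain list 0 of 10 transcripts were higher and 2 lower in Bio. Its median was 0.10, with 6 higher and 4 lower fitted values. The homeobox list, with 40 of 41 members tested, had 2 higher and 3 lower. Its median was -0.03, with 20 higher and 20 lower fitted values. Among regulators of root development, the LOB-domain transcript rtcs (GRMZM2G092542_T01), without which maize forms no crown and seminal roots, stood at -5.95, -4.36 and -4.63 on Bio 1 to 3 and at -3.18, -1.60 and -3.18 on N 1 to 3, without overlap (-2.32 ± 0.39, adjusted p = 0.404). The homeobox transcript wox5B (GRMZM2G116063_T01), whose relative in Arabidopsis marks the quiescent centre of the root tip, stood at -4.44, -3.73 and -3.64 in Bio and at -3.14, -2.67 and -3.27 in N (-0.91 ± 0.25, adjusted p = 0.452). The Bio arrays were all below the N arrays, and the Aa levels of -2.85, -2.91 and -3.10 lay within the range of N (Bio vs. Aa -0.98, adjusted p = 0.656).

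Of the 7 root markers that were tested, 2 were higher and 1 lower (rtcs, above) at an unadjusted p below 0.05, and 5 had higher and 2 lower fitted values. The Casparian strip protein CASP1 (GRMZM2G110832_T01), which scaffolds the barrier of the endodermis, stood at -2.84, -3.30 and -2.53 in Bio and at -3.52, -3.76 and -3.84 in N (0.82 ± 0.28, adjusted p = 0.488). Root cap protein 2 (agp, GRMZM2G146502_T01) stood at 1.90, 2.17 and 3.10 against 1.43, 1.26 and 1.08 (1.13 ± 0.37, adjusted p = 0.480), and root cap protein 1 (GRMZM2G097316_T01) had levels of 2.83, 2.53 and 4.25 against 2.26, 2.26 and 1.70 (1.13 ± 0.54, adjusted p = 0.547). All 3 were higher in Bio without overlap, and for both root cap proteins slide 3 had the widest distance.

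**Figure D3:**
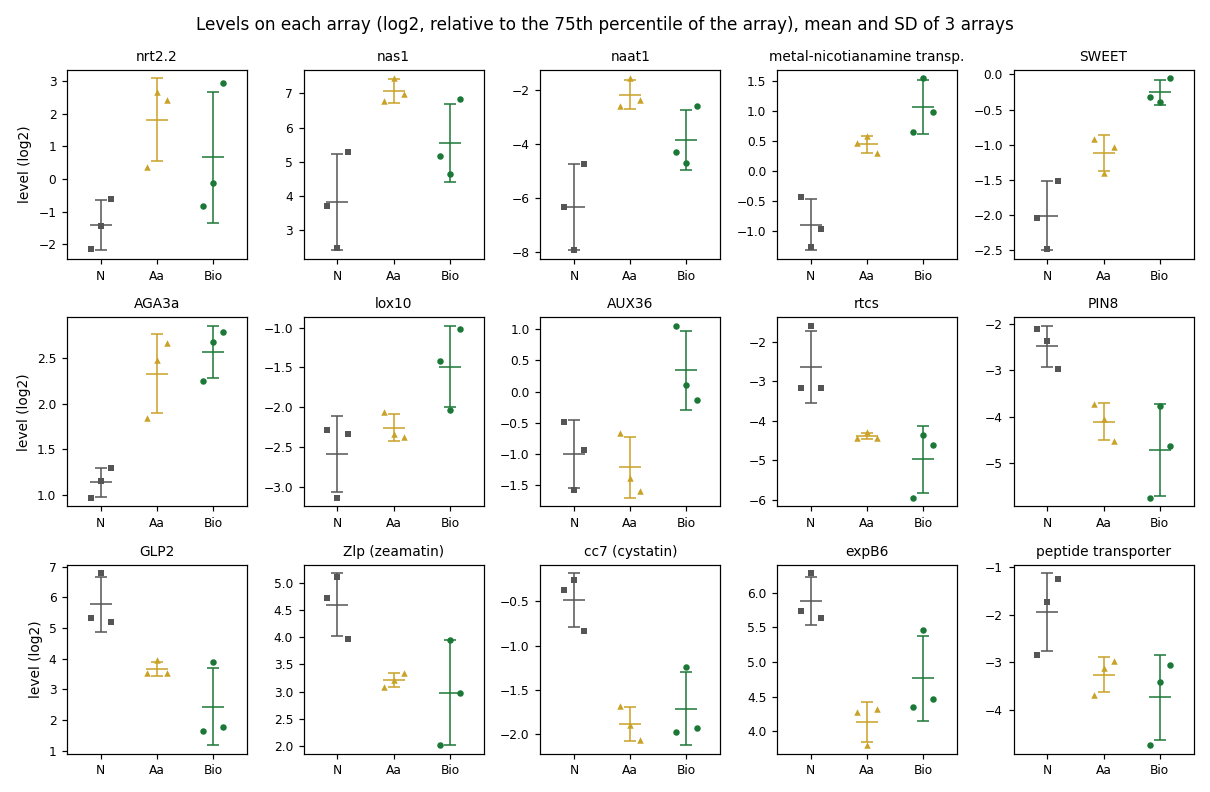
Log2 level of 15 transcripts named in the text on each array, with the mean and the SD of the 3 arrays of N, Aa and Bio. The first 8 panels show transcripts higher in Bio than in N and the last 7 those lower, and nrt2.2 and nas1 overlap between Bio and N.

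Transcripts for defence proteins tended to be lower in Bio. Of 22 pathogenesis-related, chitinase and inhibitor transcripts, 1 was higher and 6 lower at an unadjusted p below 0.05, with a median of -0.36, and 4 were at least 2-fold lower without overlap, where over all transcripts 1.18% were. Zeamatin (Zlp, GRMZM2G374971_T01), an antifungal protein, stood at 2.02, 3.95 and 2.98 on Bio 1 to 3 and at 4.73, 5.10 and 3.97 on N 1 to 3 (-1.62 ± 0.42, adjusted p = 0.451). Every Bio array was below every N array, but Bio 2 and N 3 were nearly equal. PR10 (GRMZM2G112524_T01) stood at 1.65, 2.50 and 1.19 in Bio and at 2.76, 3.28 and 2.53 in N (-1.08 ± 0.39, adjusted p = 0.497), again with Bio 2 and N 3 the closest. The wound-induced inhibitor wip1 (GRMZM2G156632_T01) stood at 1.69, 3.49 and 2.27 against 3.66, 4.04 and 3.27 (-1.17 ± 0.29, adjusted p = 0.450), where Bio 2 was above N 3.

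The germin-like protein GLP2 (GRMZM2G122018_T01) was among the brightest transcripts with an unadjusted p of at most 0.01. It stood at 1.66, 3.89 and 1.78 in Bio and at 5.33, 6.79 and 5.19 in N, at 3.55, 3.94 and 3.54 in Aa. All Bio arrays were below all N arrays, and the fit, which left out the marked spot of Bio 2, gave -3.55 ± 0.24 (adjusted p = 0.366). LOL3 (GRMZM2G125314_T01) and bss1 (GRMZM2G168552_T01), which met the same conditions, were higher in Bio (1.08 ± 0.28 and 1.48 ± 0.40), and the groups overlapped for bss1, which was at 0.94 without Bio 1.

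Of 9 cystatins, inhibitors of cysteine proteases, 8 were tested, of which 0 were higher and 1 lower, and 7 had lower fitted values, with a median of -0.51. The cystatin cc7 (GRMZM2G148925_T01) stood at -1.97, -1.24 and -1.92 in Bio and at -0.37, -0.26 and -0.83 in N (-1.22 ± 0.21, adjusted p = 0.404). The cystatin cc6 (GRMZM2G401328_T01) stood at -0.04, 1.75 and 0.94 against 2.30, 2.27 and 2.08 (-0.996 ± 0.38, fitted without 1 marked spot). Both had no overlap between the groups, and Bio 1 was lowest for each.

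Of 32 glutathione transferases, which join glutathione to reactive and foreign compounds, 29 were tested, of which 1 was higher and 5 lower. The transcript gst28 (GRMZM2G146475_T01) stood at -4.52, -3.80 and -3.94 in Bio and at -3.51, -2.96 and -3.65 in N (-0.71 ± 0.20), without overlap. Of 16 antioxidant enzymes (catalases, superoxide dismutases and enzymes of the ascorbate cycle), 15 had lower fitted values in Bio with a median of -0.35, in a range of -0.61 to 0.36, and 0 had an unadjusted p below 0.05. In terpene synthesis the diphosphate synthase CPPS2 (GRMZM2G044481_T01), which opens the route to diterpenoid phytoalexins in maize, stood at -0.66, 2.58 and 0.69 against 2.62, 3.51 and 2.29 (-2.90 ± 0.64, fitted without 3 marked spots), with Bio 2 above N 3 and a value of -1.75 without Bio 1. Benzoxazinoid synthesis had 0 of 10 transcripts at an unadjusted p below 0.05, and its median of -0.40 was made of 0.75 on slide 1 and lower values on the others.

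Of 16 expansins, which loosen the wall during growth, 0 were higher and 2 lower in Bio, with a median of -0.39 that was 0.08 after background correction on the negative controls. The beta-expansin expB6 (GRMZM2G176595_T01) stood at 4.36, 5.47 and 4.47 in Bio and at 5.74, 6.28 and 5.64 in N (-1.12 ± 0.33, adjusted p = 0.463), without overlap. Of 12 endoglucanases, 11 were tested, of which 0 were higher and 2 lower, and Cel20 (GRMZM2G453565_T01) stood at -1.24, 1.04 and -0.87 against 1.72, 1.96 and 0.85, which overlapped, with -1.95 in the fit that left out 1 marked spot and -1.09 without Bio 1. Cel21 (GRMZM2G009025_T01) stood at -0.34, 0.48 and -0.32 against 0.94, 0.78 and 0.83 without overlap (-0.91 ± 0.24, adjusted p = 0.451).

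Of 25 transcripts of lignin synthesis and laccases, 23 were tested, of which 4 were higher and 0 lower, with a median of 0.33 that was -0.06 after background correction on all spots and -0.05 without N 1. Laccase-13 (GRMZM5G814718_T01), of the oxidases that couple lignin units, stood at -2.31, -2.10 and -2.36 in Bio and at -3.10, -3.36 and -2.52 in N (0.73 ± 0.26, adjusted p = 0.494). Laccase-17 (GRMZM2G072808_T01) had levels of -1.70, -3.52 and -1.31 against -3.62, -3.70 and -2.24, which overlapped, and its log2 fold change of 1.01 was 0.56 without Bio 1. The peroxidase PER66 (GRMZM2G133475_T01) was higher in Bio on each slide (1.27 ± 0.42), with overlapping groups. Of 23 cellulose synthases and related transcripts, 20 were tested, of which 1 was higher and 2 lower, and the COBRA-like transcript Bk2L6 (GRMZM2G167520_T01) stood at -2.65, -2.41 and -2.09 against -1.53, -1.16 and -1.69 (-0.92 ± 0.22).

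Photosynthesis transcripts and transcripts of anthocyanin synthesis differed strongly between Bio and N, but not alike in the 3 repeats. Of the 16 green shoot markers, 6 were higher and 1 lower in Bio and 4 were at least 2-fold higher without overlap, where over all transcripts 1.13% were, and the median was 1.50. The median on slides 1 to 3 was 2.45, 1.51 and 0.10, so that the difference was seen on slides 1 and 2 and hardly on slide 3. In the fit without Bio 1 the median was 0.81, and after background correction on all spots it was -0.23. None of the 7 members at an unadjusted p below 0.05 was well above background on all 6 arrays. Members that were so had an unadjusted p of 0.057 or more by limma. The 8 members with a mean level of at least -5 had a median of 1.72. The light-harvesting protein lhcb5 (GRMZM2G149428_T01) stood at -2.84, -4.97 and -5.42 in Bio and at -7.97, -7.60 and -5.54 in N (2.63 ± 0.87, adjusted p = 0.480), where Bio 3 and N 3 were nearly equal and the value without Bio 1 was 1.73. Rubisco activase (RA, GRMZM2G162200_T01) stood at -1.29, -3.37 and -4.07 against -6.03, -4.67 and -5.37 (2.45 ± 1.05, or 1.24 without Bio 1), with Bio above N on each slide.

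A chlorophyll a-b binding protein (GRMZM2G429955_T01) had the largest log2 fold change of all transcripts, with 4.45, 2.72 and 0.75 on Bio 1 to 3 and -2.86, -1.46 and 0.27 on N 1 to 3. The groups did not overlap, and the distance was widest on slide 1 and 0.48 on slide 3. The fitted 6.70 ± 0.95 left out the marked spots of Bio 2, Bio 3 and N 3, so that Bio 1 alone stands for Bio in it. Phosphoribulokinase (GRMZM2G463280_T01), of the carbon fixation cycle, stood at -3.34, -4.60 and -3.98 in Bio and at -5.82, -5.57 and -5.46 in N (1.65 ± 0.42, adjusted p = 0.451). The chloroplast protein PGR5-like 1A (GRMZM5G885392_T01), of the electron flow around photosystem I, stood at -3.25, -4.01 and -4.66 against -5.69, -5.58 and -5.82 (1.72 ± 0.41, adjusted p = 0.440). Both were higher in Bio on all 3 slides without overlap, as was rubisco activase.

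Of 9 flavonoid transcripts 0 were higher and 1 lower, and the median of -0.71 was made of 1.47, -1.82 and -1.42 on slides 1 to 3. The late anthocyanin steps moved together from slide to slide. The anthocyanidin synthase a2 (GRMZM2G345717_T01) stood at 2.26, -4.10 and 0.56 on Bio 1 to 3 and at -0.44, 2.88 and 2.64 on N 1 to 3, and the reductase A1 (GRMZM2G026930_T01) at 1.84, -4.31 and -0.30 against -1.33, 1.90 and 1.92. Both were higher in Bio on slide 1 and lower on slides 2 and 3, and the groups overlapped. The glucosyltransferase bronze (GRMZM2G165390_T01) and the transferase bronze-2 (GRMZM2G016241_T01) had the same signs on each slide, and the fit of bronze (-3.003 ± 0.80) left out the marked spot of Bio 1, the array on which it was high. The direction for this group therefore depended on the repeat, with the median of the list at 0.31 without slide 2.

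**Figure D4:**
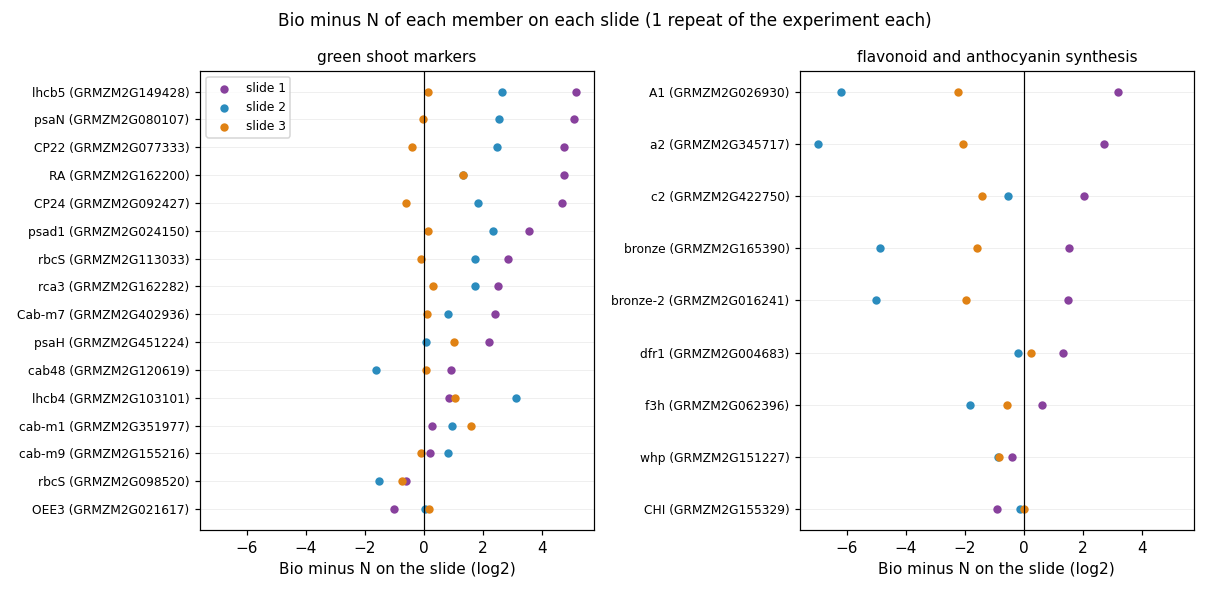
Bio minus N on slides 1, 2 and 3 (log2) for each of 16 green shoot markers and 9 transcripts of flavonoid and anthocyanin synthesis. Most green shoot markers lie to the right of 0 on slides 1 and 2 and near 0 on slide 3, and a2, A1, bronze and bronze-2 lie to the right of 0 on slide 1 and to the left on slides 2 and 3.

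Of 39 ribosomal protein transcripts, 32 were tested, of which 1 was higher and 3 lower, with a median of -0.20 in a range of -0.63 to 0.65. Of 33 histone and replication transcripts, 0 were higher and 4 lower, 26 had lower fitted values and the median was -0.22, with his2b2 (GRMZM2G119071_T01) at -5.62, -5.45 and -4.31 in Bio against -4.24, -4.61 and -3.74 in N. The groups overlapped for his2b2.

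Of 46 transcription factors of the bHLH type, 44 were tested, of which 5 were higher and 1 lower, and bHLH161 (GRMZM2G045883_T01) stood at -0.34, -0.59 and 0.55 in Bio and at -1.58, -1.17 and -0.80 in N (1.06 ± 0.22, adjusted p = 0.437). bHLH23 (GRMZM2G178182_T01) stood at -1.07, -2.69 and -1.38 against -3.28, -3.64 and -2.85 (1.54 ± 0.33, adjusted p = 0.439), and neither overlapped. Of 38 AP2/ERF factors, 36 were tested, of which 1 was higher and 5 lower, and EREB27 (GRMZM2G084264_T01) stood at -2.47, -0.996 and -2.01 against -0.34, 0.19 and 0.04 (-1.79 ± 0.47, adjusted p = 0.451), without overlap. Of 30 NAC factors, 3 were higher and 3 lower, with NAC22 (GRMZM2G156977_T01) at -0.62, -0.71 and 0.20 against -1.27, -2.18 and -2.46 (1.60 ± 0.43, adjusted p = 0.452).

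The TCP factors, regulators of cell division in growing organs, were a small list with values on 1 side. All 6 tested members had higher fitted values in Bio, in a range of 0.43 to 0.55 with a median of 0.49, and 3 had an unadjusted p below 0.05. Without Bio 1 the median was 0.33 and none of these 3 had an unadjusted p below 0.05. TCP20 (GRMZM2G034638_T01) stood at 0.62, 0.19 and 0.73 in Bio and at -0.08, 0.01 and 0.18 in N (0.48 ± 0.17, adjusted p = 0.495), just without overlap, and TCP5 (GRMZM2G115516_T01) and TCP8 (GRMZM2G092214_T01) overlapped and turned to -0.06 and -0.09 after background correction on all spots. Among 19 WRKY factors, which act in defence, 1 was higher and 2 lower, with WRKY30 (GRMZM2G143204_T01) at -0.93, 0.26 and 0.01 against 0.74, 1.18 and 0.52 (-1.04 ± 0.36, and -0.59 with an unadjusted p above 0.05 without Bio 1).

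**Figure D5:**
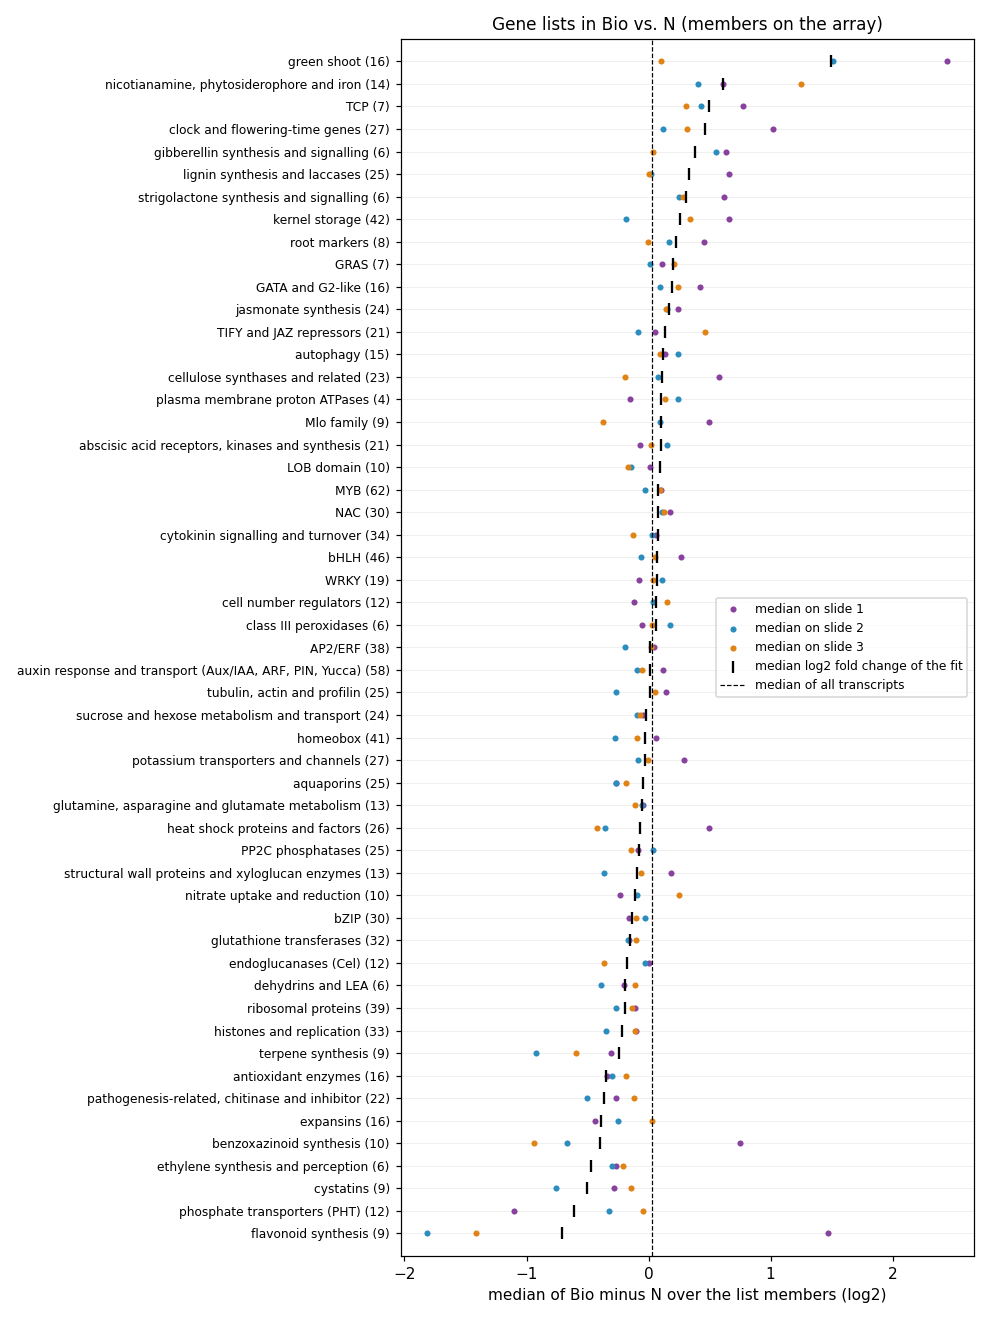
Median of Bio minus N (log2) over the members of each of the 53 gene lists, with the fitted median as a black bar, the median on each slide as a coloured point and the median of all transcripts (0.03) as a dashed line. The green shoot list has the highest median (1.50) and the flavonoid list the lowest (-0.71), and these lists are also among those whose 3 slides lie farthest apart.

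The reference transcript of the quantitative PCR, a ubiquitin-conjugating enzyme (GRMZM2G027378_T01), lay between 5.55 and 5.78 on the 6 arrays, and 4 of its spots were marked, so that it was not tested. A glycine-rich cell wall protein (GRMZM2G024996_T01) stood at -0.79, 2.70 and -1.70 in Bio and at 4.83, 4.43 and 3.76 in N, with every Bio array below every N array. Its fit left out 2 marked N spots and gave -2.83 ± 1.64 (adjusted p = 0.601).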

How the data were processed

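Roots of maize seedlings were profiled on 1-colour (Cy3) arrays, with 3 arrays each for Bio, N and Aa. The authors deposited intensity values that Agilent Feature Extraction 10.5.1.1 had corrected for trends and background, without scaling between arrays, and a second table of the same intensities multiplied by 1 factor per array. The unscaled intensities of probes other than controls were log2-transformed, relative to the 75th percentile of their array. This percentile lay at 617.1 to 648.3 intensity units in Bio and at 680.1 to 962.1 in N. On the 6 arrays 13209 spots (5.59%) were marked as non-uniform or population outliers and were missing in the fits, no spot was saturated, and single levels and overlaps use every spot. The number of arrays limits the precision.

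All 9 arrays were fitted in limma 3.58.1 (R 4.3.3) with treatment and slide, and p-values were adjusted by Benjamini-Hochberg over all tested transcripts. Slide and replicate number are the same, so that the block is also the pairing. The deviations of Bio and N arrays of the same slide from their group means correlated at 0.01, 0.23 and 0.26, and since the repeats of the experiment define the pairs, the block was kept. Single values of 3 against 3 arrays cannot reach an exact permutation p below 0.1, so none is given. The bound "at least" sets the mean of the brighter group against the lowest signal well above background on each array.

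Symbols come from a RefSeq table (assembly Zm-B73-REFERENCE-NAM-5.0, newer than the array's release) that held the genes of 18727 transcripts, and descriptions of 1016 transcripts from the study's tables. The members, lists and tests were chosen with earlier results of these data known. Named were the 12 largest annotated differences in each direction with up to 2 without annotation, up to 3 members of each list (any member of a list of 12 or fewer), the transcripts of the quantitative PCR, and the 5 brightest annotated transcripts with an unadjusted p of at most 0.01. The fit was tested on simulated data with 39372 transcripts. Alternatives were quantile normalization, another percentile base, 2 forms of normexp background correction (offset 50), the scaled values, a filter on dim probes, marked spots kept, no block, only the 6 arrays, an intensity trend, the robust option, the methods' t-test, other thresholds, and each array or slide left out.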

Additional observations from a re-analysis of the deposited data

How the results depend on the processing

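The count of 0 calls by limma at an adjusted p of 0.01 held under all alternatives of normalization, filter and block and without any 1 array or slide, where the smallest adjusted p ran from 0.0192 to 0.880. At an adjusted p of 0.05 it was 0 in the fit reported, 11 with normexp on the negative controls and 1 with the filter on dim probes, without a minimum fold. Counting the methods' t-test without adjustment gave 103. Of the 3741 transcripts at an unadjusted p below 0.05, the fit with no replicate block had 2703, the 6 arrays alone with no replicate block 2113, the methods' t-test 1970, and leaving out 1 array or slide gave 2613 to 4591. Without Bio 2 the split was 2660 higher to 1931 lower, and without N 2 1549 to 1087. Normexp background correction on all spots moved the median of all transcripts to -0.35 and left 354, and on the negative controls it moved the median to 0.16 and gave 8376, with 6797 higher and 1579 lower, against 1847 and 1894. On N 1 the first of these compressed the levels to almost no range. The 909 transcripts at 2-fold without overlap became 344 and 354 under these corrections, and 1224 to 3641 without 1 array or slide, since fewer arrays overlap less. With marked spots left out, chosen after seeing the data, they were 1041.

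Of the values of single transcripts, 2168 kept their sign and 18 reversed. Under normexp on all spots, nrt2 went to -0.014, naat1 to -0.015, TCP8 to -0.087, TCP5 to -0.058, Laccase-13 to -0.062, CASP1 to -0.12, PER66 to -0.015, GRMZM2G107239_T01 to -0.031, GRMZM2G463280_T01 to -0.010, GRMZM5G827810_T01 to -0.063 and GRMZM5G885392_T01 to -0.093. Leaving out 1 array or slide moved bronze-2 from -5.14 without slide 1 to 0.71 without slide 2 (0.54 without N 2), A1 from -6.21 to 2.02 (1.64 without N 2, 0.038 without Bio 2) and a2 from -4.53 to 0.31. BX3 was at -0.12 with marked spots kept. The cause was not tested. The block by replicate number was not run apart from that by slide, to which it is identical. Beside the values given with the results above, CASP1, PR10, HK1a2, HK1b2, expB6, Laccase-13, hsp18, nas1 and CNR11 kept their direction without Bio 1 but no longer had an unadjusted p below 0.05. The flavonoid transcripts A1, a2 and bronze-2 had larger differences, of -4.62, -4.05 and -3.87, without Bio 1.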

Other observations

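Some of the lists that the comparison did not turn on are given here with their counts at an unadjusted p below 0.05 by limma. Over all transcripts the share was 9.75%. The clock and flowering-time list (14.8%) and the cell number regulators (16.7%) were above it. Of 27 transcripts of potassium transporters and channels, 0 were higher and 1 lower in Bio, of 25 aquaporins 0 and 1, of 25 PP2C phosphatases 0 and 2, and of 15 autophagy transcripts 0 and 0. Of 26 heat shock proteins and factors, 0 were higher and 1 lower, with hsp18 (GRMZM2G149647_T01), a small heat shock protein, at -5.97, -5.14 and -6.75 in Bio and at -4.58, -3.72 and -4.11 in N, without overlap. Of 27 clock and flowering-time transcripts, 3 were higher and 1 lower, and their median of 0.46 was 1.02 on slide 1 and -0.29 after background correction on all spots. Of 12 cell number regulators, which restrain organ size in maize, 2 were higher and 0 lower, and CNR11 (GRMZM2G367431_T01) stood at -4.13, -6.69 and -2.67 against -6.94, -6.42 and -6.59. It was well above background on no N array and at least 3.73-fold higher in Bio, with Bio 2 inside the range of N.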
